A study of Homo sapiens with 6 samples.

Results

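Cholesterol synthesis and its control were followed through 8 genes of A549 cells: HMGCS1, IDI1, FDFT1, SQLE and DHCR7, which encode enzymes of the pathway, SREBF2 and INSIG1, which encode parts of its sterol switch, and CH25H, which encodes the enzyme that makes 25-hydroxycholesterol. The genes were chosen by name, and each of the 8 was found as 1 row among the 29845 genes in the deposited counts. A549 cells are a long-used human line that grew out of a lung carcinoma and keep an epithelial character. Control libraries came from 3 cultures transfected with the empty pIRES-hrGFP-1a vector, and libraries labelled TFAM-OE came from 3 cultures transfected with the same vector carrying human TFAM fused to a FLAG tag. Both plasmids were delivered with a lipid reagent, so every culture carried a vector and had met that reagent, and no untransfected cells were among the groups. TFAM is the protein that packages mitochondrial DNA and starts its transcription, and the study asked which nuclear genes respond when more of it is made. In brief, CH25H fell from 119 reads over the control libraries to 5 over those labelled TFAM-OE, a fitted 0.0451 of its control level. It passed the filter on low counts only through the control libraries, so a low level under TFAM-OE was bound to show. None of the other 7 genes passed the test, and SREBF1, a gene outside the 8 that encodes the sister factor of SREBP-2, rose.

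Cells make cholesterol from acetyl-CoA in a long series of steps, of which the first part, up to farnesyl diphosphate, is the mevalonate arm and the rest is the sterol arm. SREBP-2, the product of SREBF2, is held in the endoplasmic reticulum by the escort SCAP and the anchor proteins INSIG1 and INSIG2 while sterols are plentiful. When sterols run short it is carried to the Golgi, cut by a pair of proteases, and enters the nucleus, where it switches on the synthesis enzymes, INSIG1 and its own gene. 25-Hydroxycholesterol binds INSIG proteins and blocks that journey, and CH25H is known as an interferon-stimulated gene in several cell types.

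These promoters are shown because they belong to the gene that fell and to a pair of switch genes that did not pass the test. Each run is the 250 bases before the RefSeq start of transcription in GRCh38.p14, on the strand of the gene, and capitals mark matches to the 5 motifs described after them. The stretches lie at chr10:89207318-89207567 on the minus strand for CH25H, chr22:41832855-41833104 on the plus strand for SREBF2 and chr7:155297628-155297877 on the plus strand for INSIG1, inside which GENCODE places an earlier start of INSIG1.
CH25H: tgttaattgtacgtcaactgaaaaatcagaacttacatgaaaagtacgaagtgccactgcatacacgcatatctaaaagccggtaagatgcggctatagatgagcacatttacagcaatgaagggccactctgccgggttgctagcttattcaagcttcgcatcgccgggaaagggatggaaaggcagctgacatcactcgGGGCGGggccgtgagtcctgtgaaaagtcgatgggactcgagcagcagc
SREBF2: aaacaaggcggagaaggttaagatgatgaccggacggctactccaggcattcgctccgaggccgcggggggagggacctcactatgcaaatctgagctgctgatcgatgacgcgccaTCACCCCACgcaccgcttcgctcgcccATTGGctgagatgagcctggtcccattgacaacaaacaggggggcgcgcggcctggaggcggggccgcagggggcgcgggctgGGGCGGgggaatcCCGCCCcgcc
INSIG1: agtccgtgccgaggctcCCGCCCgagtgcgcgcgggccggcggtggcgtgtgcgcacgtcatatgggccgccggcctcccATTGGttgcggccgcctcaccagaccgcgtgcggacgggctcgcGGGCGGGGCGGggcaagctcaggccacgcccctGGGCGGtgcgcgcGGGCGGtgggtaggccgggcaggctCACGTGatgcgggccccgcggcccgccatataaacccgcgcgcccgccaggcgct

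The motifs searched on both strands were the sterol regulatory element TCACNCCAC, the core of the interferon-stimulated response element GAAANNGAA, the NF-Y box CCAAT, the SP1 box GGGCGG and the E-box CACGTG. RefSeq windows, which reach from 250 bases before a start to 50 bases after it, were found for 6 of the 8 genes, 10 windows in all, and none was found for FDFT1 and SQLE. SREBF2 held the 1 match to the sterol regulatory element, TCACCCCAC from base -133 to base -125, where base -1 is the last before the start, and 1.13% of all 35116 windows held such a match. An NF-Y box was found in 6 of the 10 windows, for every one of the 6 genes except CH25H, against 34.6% of all windows. An SP1 box was found in 9 of the 10, against 45.0%, and some matches overlapped, as a pair of SP1 boxes in INSIG1 did by 1 base. INSIG1 alone held the E-box, which is in 7.26% of all windows. The interferon-stimulated letters were in 0 of the 10 windows, CH25H included, against 8.11% of all windows. No binding was measured here, and a match of letters is a description of the window.

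The counts summed to between 26650854 and 37321956 reads per library. TFAM itself did not pass the test by its own mRNA counts. Its CPM (counts scaled to the size of the library after TMM adjustment) was 76.1, 70.2 and 72.7 in the control libraries and 71.9, 77.3 and 83.0 in those labelled TFAM-OE. The log2 ratio of TFAM-OE over control was 0.08 (standard error, SE, 0.096, adjusted p = 0.623 by the quasi-likelihood test of edgeR, the test used throughout). The paper reports the overexpressed protein by a western blot against the FLAG tag, which these RNA counts do not measure. As the mRNA did not pass, the groups are named by their labels. Each of the 8 epithelial and A549 markers was read in every library, with a summed level of 4420 to 4478 FPKM (fragments scaled to transcript length and library size) in the control and 4587 to 4794 FPKM in the libraries labelled TFAM-OE, although CDH1 was low, down to 0.61 FPKM. None of these 8 was called by edgeR. In TMM-scaled CPM the groups did not overlap for AKR1C1, lower at a log2 ratio of -0.52 (adjusted p = 0.053 by edgeR). Nor did they for ALDH1A1, higher at 0.35 (adjusted p = 0.084 by edgeR). Over all genes tested, 15.8% were separated in each direction. Fibroblast markers summed to at most 0.21 FPKM and endothelial markers to at most 0.08 FPKM in a library. Of the leukocyte markers, PTPRC had at most 1 read in a library, whereas CD14 rose (log2 ratio 1.1, adjusted p = 0.0057 by edgeR), and CD79A stood at 0.24 to 0.54 FPKM in the control and 0.19 to 0.38 FPKM under TFAM-OE (log2 ratio -0.24, adjusted p = 0.758 by edgeR). The summed level of that list was 1.15 to 1.54 FPKM in the control and 2.13 to 2.70 FPKM under TFAM-OE, and of its tested genes CD14 alone was higher. The part of CD14 in the results that follow was not tested.

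Of the 8 genes, 1 was called lower and 0 were called higher at an adjusted p below 0.05. The background was 4.81% called lower and 3.48% called higher among 16555 genes tested. The study also asked for a 2-fold difference, and with that requirement the 8 genes still gave 1 lower and 0 higher, beside 2.07% lower and 0.447% higher over all genes. All 8 genes passed the filter on low counts, CH25H only through the control libraries, so that a low level under TFAM-OE was bound to show as a difference. In TMM-scaled CPM, the 3 libraries of one group lay entirely apart from those of the other in 5 of the 8 genes, with CH25H and INSIG1 on the lower side and FDFT1, DHCR7 and SREBF2 on the higher side under TFAM-OE, whereas 15.8% of all genes tested were separated in the lower direction and 15.8% in the higher. These are bulk RNA values, in which fewer expressing cells and less RNA per cell cannot be told apart.

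**Figure D1:**
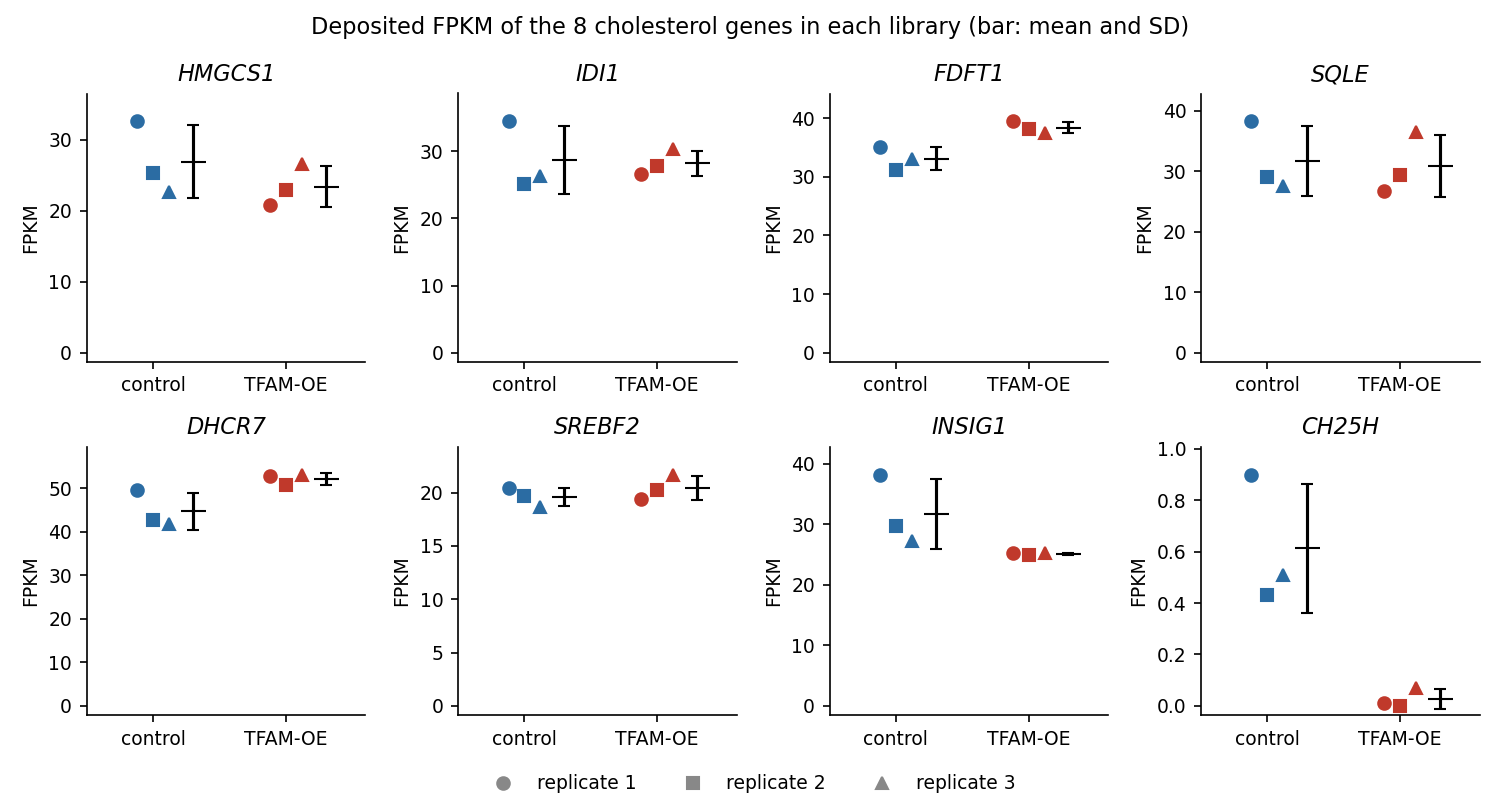
Deposited FPKM (vertical axes, each from 0) of the 8 genes in each library, with control libraries in blue, libraries labelled TFAM-OE in red, the replicate number as the symbol, and black bars for the mean and SD of 3 libraries. CH25H falls to between 0 and 0.07 FPKM, INSIG1 sits just below its control libraries, DHCR7 and FDFT1 sit just above theirs, and control replicate 1 is the highest blue point in all 8 panels.

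CH25H (ENSG00000138135.6) is a gene without introns on the minus strand of chromosome 10 of GRCh38, from 89205629 to 89207317, and no annotated gene overlaps it. Control libraries 1 to 3 held 58, 23 and 38 of its reads, and TFAM-OE libraries 1 to 3 held 1, 0 and 4. Every library labelled TFAM-OE was thus far below every control library, and the second of them held no read, which allows up to 0.0812 CPM at 3 reads of its total. As FPKM the values were 0.9, 0.43 and 0.51 in the control and 0.01, 0 and 0.07 in the libraries labelled TFAM-OE. The fitted log2 ratio was -4.47 (SE 0.63, adjusted p = 0.0034 by edgeR), a fold of 0.0451 with a 95% interval from 0.0171 to 0.119. It was the lowest fitted value of all 16555 genes tested, but for so few reads the fitted value depends on the small count that edgeR adds before it takes logs. Summed over libraries, 119 reads of 96403576 in the control stood against 5 reads of 99273356, a ratio of 24.5 with an exact 95% interval from 10.2 to 76.9, which covers counting error only.

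The fall of CH25H was called under each of the 16 alternatives, which reuse the same libraries and are no independent evidence. Adjusted p-values reached up to 0.024 by edgeR. The lowest, 9.0e-17, came from the edgeR fit without a filter, where the prior degrees of freedom were infinite. The log2 ratio of CH25H lay between -6.04 and -3.84 with each library left out in turn. It was -4.11 without control replicate 1, which held the most reads of CH25H. Without replicate 3 of TFAM-OE, which held 4 of the 5 reads, it was -6.04. On log2(FPKM + 1), where a level below 1 FPKM can move little, it was -0.64.

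Genes of the interferon response moved with CH25H. All 10 genes of a list that holds IFNB1 and 9 interferon-stimulated genes were called lower by edgeR, beside 4.81% of all genes tested. Their log2 ratios ran from -4.28 to -1.99 with a median of -2.77, against a median of -0.01 over all genes tested. The direction of that list was known from earlier results of these data and is no independent evidence. IFNB1, which encodes interferon beta, went from 174, 121 and 132 reads under the empty vector to 12, 5 and 5 under TFAM-OE. Its groups did not overlap either, where 15.8% of all genes tested were separated in the lower direction. Whether the fall of CH25H depends on interferon was not tested.

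CH25H also lies beside the IFIT genes, whose products bind foreign RNA. Its neighbours were looked up after the values had been seen, as the protein-coding genes that start within 300 kb. Of 8 such neighbours, 7 were tested, and over all genes tested 4.81% were called lower. IFIT2, IFIT3, IFIT1 and IFIT5, which start 76.4, 120, 185.2 and 207.3 kb away on the side of rising coordinates, fell with log2 ratios of -2.81, -2.71, -2.55 and -1.27 (adjusted p at most 2.1e-04 by edgeR). FAS, which encodes a death receptor, starts at -253.5 kb, on the other side, and fell with a log2 ratio of -0.89 (adjusted p = 0.0038 by edgeR). LIPA, the lysosomal acid lipase that frees cholesterol from its esters, and ACTA2, a smooth muscle actin, did not pass, at -0.32 (adjusted p = 0.060) and -0.38 (adjusted p = 0.135). LIPA overlaps IFIT2, IFIT3 and IFIT1 on the other strand, and with the strand setting unknown, reads of these genes cannot be told apart from its own. FAS and ACTA2 also overlap each other on opposite strands, so the same limit holds for them.

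**Figure D2:**
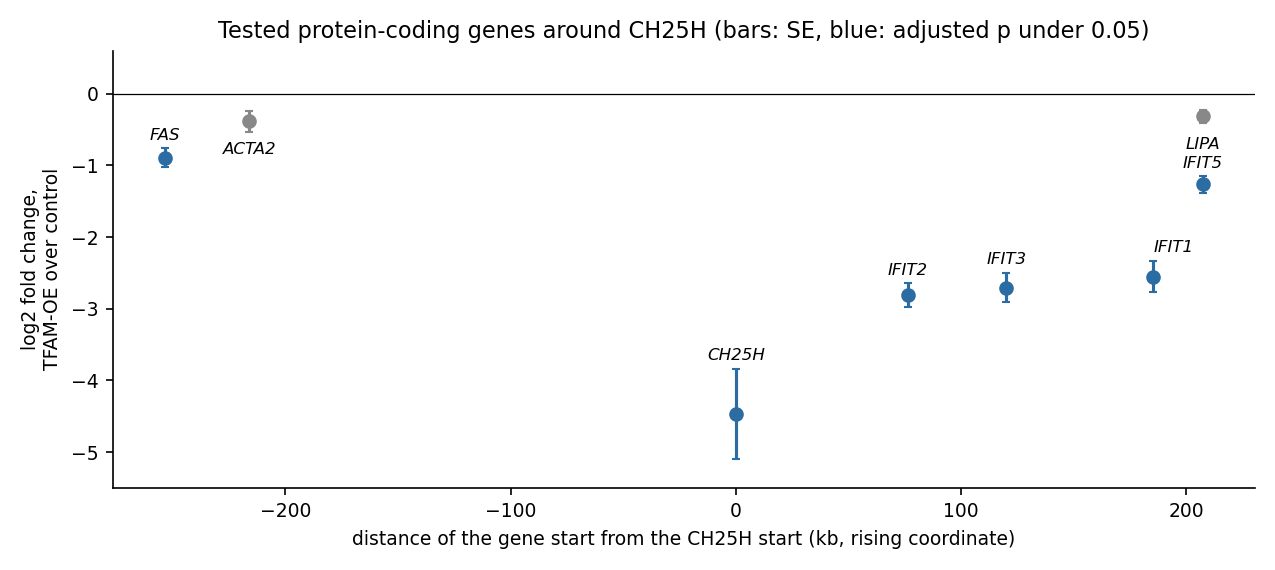
Log2 ratio (vertical axis, libraries labelled TFAM-OE over control, bars are the SE, the standard error) of CH25H and its 7 tested protein-coding neighbours against the distance of their start from that of CH25H in kb. Blue points passed an adjusted p of 0.05 and grey points did not. IFIT2, IFIT3 and IFIT1 lie between -2.81 and -2.55, and LIPA, which starts next to IFIT5 and overlaps the other IFIT genes named here on the other strand, lies at -0.32.

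The enzymes are taken in the order of the pathway. HMGCS1 (ENSG00000112972.14, chromosome 5, 43287470 to 43313512, minus strand) condenses acetyl units into HMG-CoA. Its FPKM values were 32.6, 25.4 and 22.7 in the control libraries and 20.8, 22.9 and 26.6 in those labelled TFAM-OE. Control replicate 1 stood above the rest and the groups overlapped. The fitted log2 ratio came to -0.18 (SE 0.12, adjusted p = 0.405 by edgeR), a fold of 0.884 with a 95% interval from 0.729 to 1.07, and it was -0.03 without control replicate 1.

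IDI1 (ENSG00000067064.10, chromosome 10, 1039152 to 1049119, minus strand) turns isopentenyl diphosphate into its reactive isomer. It had 34.5, 25.1 and 26.4 FPKM in the control libraries and 26.6, 27.8 and 30.3 FPKM in those labelled TFAM-OE. Again control replicate 1 was the highest of all 6 libraries, and the control values straddled the others. Its log2 ratio was 0.00 (SE 0.12, adjusted p = 0.991 by edgeR), a fold of 1.00 with a 95% interval from 0.838 to 1.20, and without control replicate 1 it was 0.14.

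FDFT1 (ENSG00000079459.12, chromosome 8, 11795573 to 11839395, plus strand) encodes squalene synthase, which makes the first step that leads to sterols alone. Its FPKM values were 35.0, 31.1 and 33.05 in the control libraries and 39.5, 38.1 and 37.5 in those labelled TFAM-OE. All 3 values were above every control value, by a small margin. On the log2 scale the ratio was 0.24 (SE 0.095, adjusted p = 0.149 by edgeR), a fold of 1.18 with an unadjusted 95% interval from 1.02 to 1.37, so the gene failed the correction over all genes. It passed in 1 of the 16 alternatives, without replicate 3 of TFAM-OE, at a log2 ratio of 0.30 (adjusted p = 0.038 by edgeR).

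SQLE (ENSG00000104549.11, chromosome 8, 124998497 to 125022283, plus strand) encodes squalene epoxidase, a control point of the sterol arm. It had 38.3, 29.0 and 27.6 FPKM in the control libraries and 26.7, 29.3 and 36.5 FPKM in those labelled TFAM-OE. The spread within each group was wider than the gap between their means. The log2 ratio here was -0.02 (SE 0.13, adjusted p = 0.955 by edgeR), a fold of 0.989 with a 95% interval from 0.810 to 1.21, and it turned to 0.13 without control replicate 1.

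DHCR7 (ENSG00000172893.15, chromosome 11, 71428193 to 71452868, minus strand) encodes the enzyme of the last step, which turns 7-dehydrocholesterol into cholesterol. Its FPKM values were 49.65, 42.65 and 41.9 in the control libraries and 52.8, 50.7 and 53.2 in those labelled TFAM-OE, with no overlap. The fitted log2 ratio came to 0.25 (SE 0.094, adjusted p = 0.133 by edgeR), a fold of 1.19 with an unadjusted 95% interval from 1.03 to 1.38. It did not pass in any of the 16 alternatives, where the log2 ratio lay between 0.21 and 0.31 and the adjusted p was at least 0.056.

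SREBF2 (ENSG00000198911.11, chromosome 22, 41833105 to 41907306, plus strand) had 20.4, 19.7 and 18.7 FPKM in the control libraries and 19.4, 20.2 and 21.7 FPKM in those labelled TFAM-OE. These overlapped, whereas in TMM-scaled CPM the groups were just apart, at 120 to 125 CPM in the control and 130 to 131 CPM in the libraries labelled TFAM-OE. Its log2 ratio was 0.08 (SE 0.084, adjusted p = 0.576 by edgeR), a fold of 1.06 with a 95% interval from 0.930 to 1.21.

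INSIG1 (ENSG00000186480.12, chromosome 7, 155297776 to 155310235, plus strand), the sterol-controlled anchor, had 38.2, 29.7 and 27.2 FPKM in the control libraries and 25.2, 24.9 and 25.3 FPKM in those labelled TFAM-OE. The libraries labelled TFAM-OE were close together and all below the control, whose replicate 1 stood highest. On the log2 scale the ratio was -0.31 (SE 0.12, adjusted p = 0.140 by edgeR), a fold of 0.808 with an unadjusted 95% interval from 0.673 to 0.971. Without control replicate 1 it was -0.17 (adjusted p = 0.457 by edgeR), and it did not pass in any of the 16 alternatives.

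For the 7 genes other than CH25H, the 95% intervals of the difference reached from a fold of 0.673 at the lowest to 1.38 at the highest. A change of 2-fold in either direction was thus outside the interval of each.

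**Figure D3:**
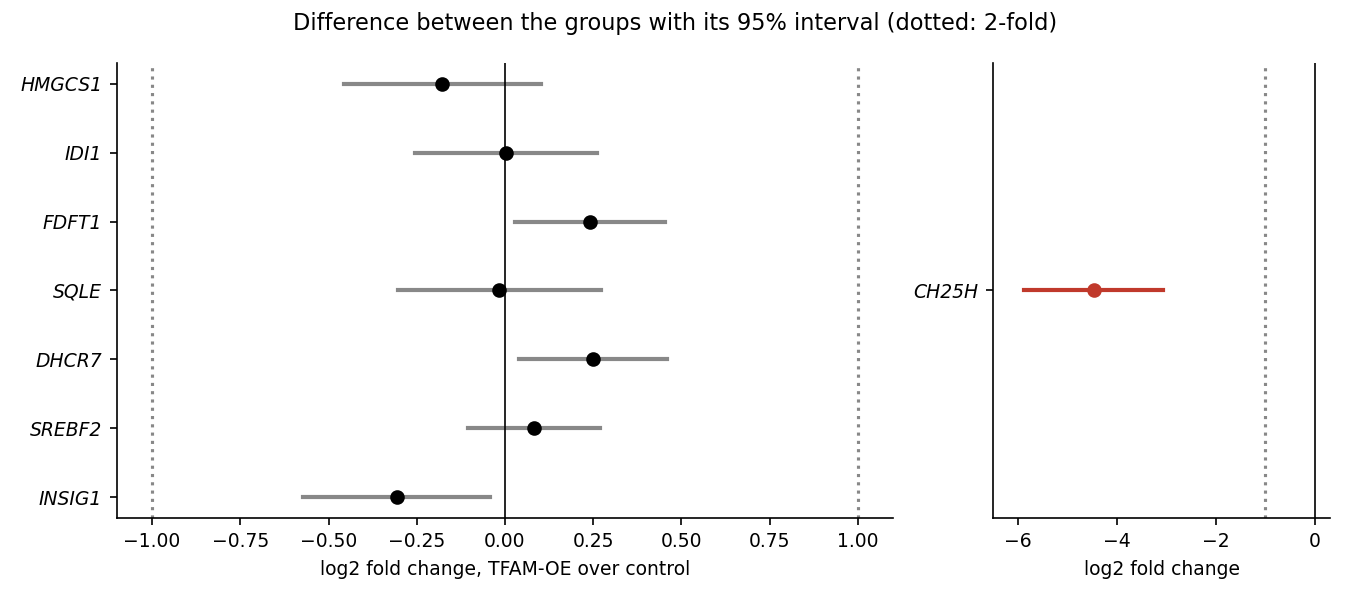
Log2 ratio (horizontal axis, libraries labelled TFAM-OE over control) of each gene with its unadjusted 95% interval, with dotted lines at a 2-fold change and CH25H on an axis of its own. The 7 intervals on the left stay within the dotted lines, and that of CH25H, from -5.87 to -3.07, lies beyond them.

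Control replicate 1 stood high for several of these genes. It was the highest control library, in TMM-scaled CPM, for 7 of the 8 genes, SREBF2 being the exception, against 37.3% of all genes tested. Without it, the log2 ratios of HMGCS1, IDI1, SQLE and INSIG1 were all higher, at -0.03, 0.14, 0.13 and -0.17. The part of that library in the spread of the control was not tested further.

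**Figure D4:**
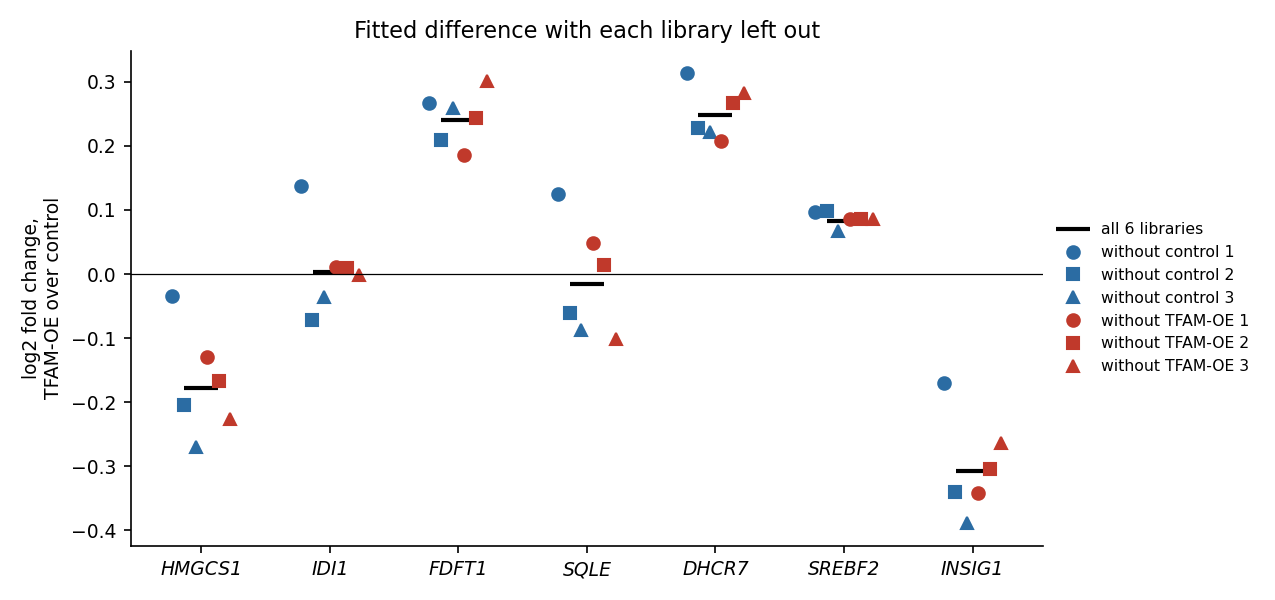
Fitted log2 ratio (vertical axis) of the 7 genes other than CH25H with all 6 libraries (black bars) and with each library left out (blue symbols for control, red for TFAM-OE, the symbol giving the replicate). The blue circles, without control replicate 1, are the highest points for HMGCS1, IDI1, SQLE, DHCR7 and INSIG1, and no symbol of IDI1 or SQLE is beyond 0.14.

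Levels can be set side by side per length, as FPKM. In the control libraries the order of mean FPKM was DHCR7 (44.7), FDFT1 (33.1), INSIG1 (31.7), SQLE (31.6), IDI1 (28.7), HMGCS1 (26.9), SREBF2 (19.6) and CH25H (0.613). DHCR7 stood clear of FDFT1 in all 3 libraries, and so did HMGCS1 of SREBF2 and SREBF2 of CH25H, whereas the neighbours from FDFT1 down to HMGCS1 overlapped. In the libraries labelled TFAM-OE the order of mean FPKM was DHCR7 (52.2), FDFT1 (38.4), SQLE (30.8), IDI1 (28.2), INSIG1 (25.1), HMGCS1 (23.4), SREBF2 (20.4) and CH25H (0.0267). INSIG1 took the fifth place in that order after the third, with values that overlapped only those of HMGCS1 next to it. CH25H stood apart from the other genes in both groups.

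The rest of the pathway was read from lists of its genes. Of the 16 other enzymes of both arms, FDPS was the 1 gene called, and it was higher, where 3.48% of all genes tested were called higher and 4.81% lower. FDPS makes farnesyl diphosphate, the branch point to prenylated proteins and sterols, and had 72.1, 75.2 and 80.1 FPKM in the control libraries and 107, 102 and 99.7 FPKM in those labelled TFAM-OE, with no overlap. Its log2 ratio was 0.46 (SE 0.10, adjusted p = 0.026 by edgeR). Processed copies of FDPS exist in the genome and a gene overlaps it on the other strand, so reads could be shared with them. The call of FDPS held in 12 of the 16 alternatives, with adjusted p-values up to 0.133. Among others it was lost without control replicate 1, without control replicate 2 and without replicate 2 of TFAM-OE, at adjusted p-values of 0.122, 0.12 and 0.124.

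Other genes of the mevalonate arm did not pass. The log2 ratios were 0.27 for ACAT2, 0.16 for MVK, 0.17 for PMVK and 0.28 for MVD. In the sterol arm, EBP, the sterol isomerase, came nearest to the threshold, at 33.2 ± 1.43 FPKM (SD, n = 3) against 41.7 ± 2.64 FPKM (SD, n = 3) and a log2 ratio of 0.36 (adjusted p = 0.064 by edgeR). EBP was called higher in several alternatives, among them DESeq2 and the fit without a filter. TM7SF2, LSS and HSD17B7 had values of 0.34, 0.23 and 0.21 on the log2 scale. NSDHL and LBR both stood at 0.11, and CYP51A1, SC5D and MSMO1 at -0.10, -0.18 and -0.23.

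Over all 21 enzymes of both arms, the 5 included, the log2 ratio was positive for 15 and negative for 6, with a median of 0.17 against -0.01 over all genes tested, and 14 were positive with scaling by library size alone. The groups did not overlap for 9 of the 21, each of them on the higher side under TFAM-OE, where 15.8% of all genes tested were separated in each direction. In size these were differences of at most 0.46 on the log2 scale. The counts describe the list and were not tested.

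SREBF1 was the 1 gene of the switch called higher. It encodes SREBP-1, which drives fatty acid synthesis, and its FPKM values were 13.5, 15.6 and 15.4 in the control libraries and 20.9, 23.9 and 29.3 in those labelled TFAM-OE. The lowest of the latter was above the highest control library. The log2 ratio here was 0.75 (SE 0.12, adjusted p = 0.0062 by edgeR), and it was called in each of the 16 alternatives, with log2 ratios from 0.66 to 0.82 and adjusted p-values up to 0.040. SREBF1 overlaps RAI1 on the other strand, FDFT1, DHCR7, HMGCS1, IDI1 and SREBF2 each overlap a gene on the other strand too, and no source here says whether the counting used strand, so shared reads cannot be told apart. SREBF2, by its side, had a log2 ratio of 0.08, with a 95% interval from -0.10 to 0.27. The difference between the changes of the 2 genes was not tested.

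Of the 14 genes of SREBP control, 1 was called higher and 0 lower, beside 3.48% and 4.81% of all genes tested, with a median log2 ratio of 0.07. SCAP, the escort, had 11.2 ± 0.850 FPKM (SD, n = 3) against 14.6 ± 0.55 FPKM (SD, n = 3), at a log2 ratio of 0.40 (adjusted p = 0.058 by edgeR). In TMM-scaled CPM its groups did not overlap, and it was called higher in several alternatives, among them DESeq2 and the fit without a filter. INSIG2, the second anchor, had a log2 ratio of 0.16, against -0.31 for INSIG1. Of 12 genes of uptake and transport, 0 were called, with a median log2 ratio of 0.03.

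Of the 13 genes of oxysterols, storage and efflux, 10 were tested, CH25H was called lower and 2 were called higher, against the 4.81% lower and 3.48% higher of all genes tested. HSD3B7, which acts on hydroxylated sterols on the way to bile acids, had 10.04, 11 and 11.95 FPKM in the control libraries and 17.74, 16.4 and 14.24 FPKM in those labelled TFAM-OE, for a log2 ratio of 0.58 (adjusted p = 0.035 by edgeR). SULT2B1, a sulfotransferase of cholesterol and oxysterols, had 1.19, 1.07 and 1.64 FPKM against 2.15, 2.46 and 2.38 FPKM, a log2 ratio of 0.85 (adjusted p = 0.028 by edgeR). Neither group pair overlapped. Both genes overlap an annotated gene on the other strand, so shared reads cannot be told apart. Each call held in 12 of the 16 alternatives. Among others both were lost without control replicate 1 (adjusted p = 0.158 and 0.135), without control replicate 2 (0.131 and 0.125) and without replicate 2 of TFAM-OE (0.143 and 0.126). The sterol 27- and 24-hydroxylase genes CYP27A1 and CYP46A1 had at most 8 and 4 reads in a library and were not tested.

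Most of the 11 genes in the list of fatty acid synthesis are known targets of SREBP-1. Any link of their values here to SREBF1 was not tested. All 11 log2 ratios were positive, 10 with scaling by library size alone, with a median of 0.21 and a lowest value of 0.001. Over all 16555 genes tested, 8098 were positive. ACACA, ELOVL6, GPAM and LPIN1 were named after their values were seen. In TMM-scaled CPM, replicate 1 of TFAM-OE was below every control library in these genes, and replicate 3 was above every one. The groups did not overlap for 5 of the 11, on the higher side, where 15.8% of all genes tested were separated in that direction. FADS2, a fatty acid desaturase, was the 1 gene called (3.48% of all genes tested were called higher), with 64.6, 61.4 and 58.1 FPKM in the control libraries and 81.4, 79.1 and 88.4 FPKM in those labelled TFAM-OE, for a log2 ratio of 0.46 (SE 0.088, adjusted p = 0.015 by edgeR). The call held in 12 of the 16 alternatives, with adjusted p-values up to 0.102. Its adjusted p was 0.061 without control replicate 1, 0.086 without control replicate 2 and 0.082 without replicate 2 of TFAM-OE. FADS2 overlaps FADS1 on the other strand and FEN1 on its own strand, so shared reads cannot be told apart. Over the 6 lists together, 5 of the 60 tested genes outside the 8 were called higher and 0 lower, beside 3.48% and 4.81% of all genes tested. Without replicate 3 of TFAM-OE that count was 14 higher and 5 lower. It was 1 higher, SREBF1, without control replicate 1, without control replicate 2 or without replicate 2 of TFAM-OE. Calls over all genes also moved with the library left out, between 66 and 1428 higher and between 240 and 1786 lower. With all 6 libraries they were 576 and 796.

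**Figure D5:**
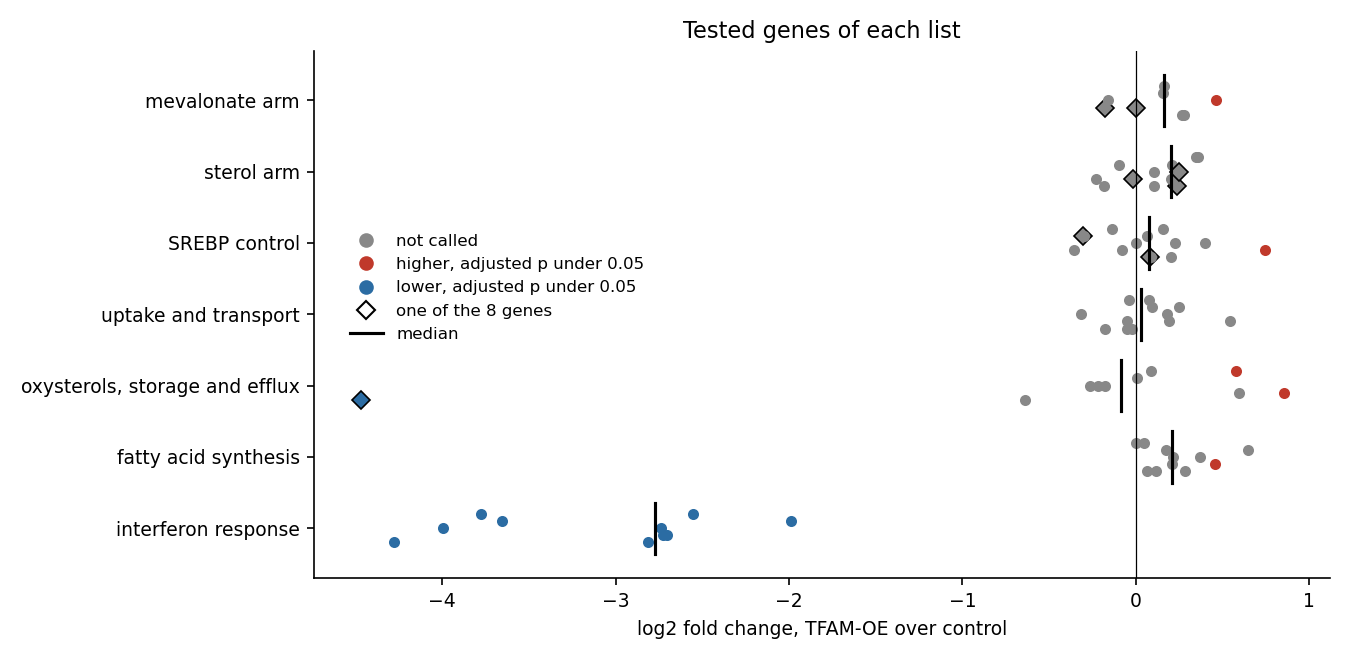
Log2 ratio (horizontal axis, libraries labelled TFAM-OE over control) of every tested gene of the 6 pathway lists and of the interferon list, with grey for genes not called, red for higher, blue for lower, diamonds for the 8 genes and black lines for list medians. The medians of the 6 pathway lists lie between -0.09 and 0.21, and CH25H, at -4.47, lies just below the lowest interferon gene, at -4.28, and away from the rest of its own list.

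The 5 enzymes did not share 1 profile over the 6 libraries. Pearson's r between them ran from -0.527 (HMGCS1 and FDFT1) to 0.922 (FDFT1 and DHCR7), so their mean need not be like each of them. By Pearson's correlation of log2(CPM + 0.1) over the 6 libraries, the genes outside the 8 most like the mean standardized profile of the 5 enzymes were CCNG1 (r = 0.991), RP4-756H11.5, ITGA4, TRPC1 and KIAA0895 (r = 0.966). Among those most like CH25H were NVL (r = 0.998), TAPT1, STX3 and TAC3 (r = 0.994). With 6 libraries in 2 groups and 16555 genes to choose from, these are descriptions of profiles. TAC3 had a log2 ratio of -4.41 and NVL one of -0.42, so a like profile did not mean a like size.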

How the data were processed

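Libraries of polyadenylated RNA were made from A549 cells, 3 with empty vector and 3 with TFAM vector. Per the labels and methods, the authors trimmed reads with the FASTX-Toolkit (0.0.13), aligned them to GRCh38 with TopHat2 and counted uniquely mapped reads per gene. For the counting program, its annotation and strand setting: not given in the sources used here. The deposited counts are raw reads per gene, and the deposited FPKM values were calculated by the authors and have 2 decimals. Replicates were not pooled, and the labels do not say how far the cultures were handled apart, so p-values measure the spread between these libraries.

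Genes that filterByExpr kept went into a quasi-likelihood fit (edgeR 4.0.16 under R 4.3.3) after TMM scaling. Tests were two-sided, and p-values were adjusted over 16555 genes by Benjamini-Hochberg. This filter was used because the prior degrees of freedom were infinite in the fit to all 29845 genes. Standard errors are the log2 fold change over the root of its F statistic. The test was first tested on simulated data. A gene was called at an adjusted p below 0.05. The smallest p that an exact permutation of these 6 libraries allows is 0.1, so none was used. Counts are reads without molecular identifiers, so depth limits only the counting error.

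The 8 genes, the lists and the tests were chosen with earlier results of these data known, and the lists come from general knowledge. Named genes are the 8, the other enzymes of both arms, called genes of the other lists, SREBF1, SCAP, INSIG2 and the 5 most correlated genes per profile, some of which are not reported here. GPR183 and CD3E were not analysed here. Positions are from GENCODE version 44 and promoters from RefSeq (GRCh38.p14). Alternatives were no filter, a minimum of 10 reads in each library of one group, RLE, upper-quartile and library-size scaling, DESeq2 (1.42.0), limma-voom and limma-trend (3.58.1) on log2(FPKM + 0.1) or log2(FPKM + 1), replicate number as a block, and each library left out.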

Additional observations from a re-analysis of the deposited data

How the results depend on the processing

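Among the 8 genes, CH25H kept its call and its direction under all 16 alternatives, and HMGCS1, DHCR7, SREBF2 and INSIG1 kept their direction and did not pass under any of them. IDI1 and SQLE, which were near 0, changed sign. IDI1 was at -0.021 when libraries were scaled only by size, at -0.0094 on both FPKM scales, and between -0.071 and 0.14 with a library left out, and SQLE lay between -0.10 and 0.13. FDFT1 lay between 0.19 and 0.30, and the count of the 8 genes called higher between 0 and 1. CH25H was not called with a 2-fold change on log2(FPKM + 1), which left 0 of the 8, because the added 1 exceeds its level. Its log2 ratio of mean FPKM lay between -6.94 and -3.94 with a library left out. CYP51A1 lay between -0.16 and 0.031 and LBR between -0.063 and 0.25.

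Without a filter, 1485 of 29845 genes were called lower and 1034 higher, and 528 and 129 with a 2-fold change. This stands against 796, 576, 342 and 74 of 16555 genes in the main fit. DESeq2, given the same 16555 genes, called 932 higher. With a 2-fold change, limma-trend called 44 higher on log2(FPKM + 0.1), and 108 lower and 11 higher on log2(FPKM + 1). With a library left out, the counts lay between 240 and 1786 lower and between 66 and 1428 higher, and with a 2-fold change between 183 and 448 and between 21 and 113. Of the 60 list genes outside the 8, 9 were called higher without a filter, 11 by DESeq2 and 8 on log2(FPKM + 1), and 1 was called lower in these and on log2(FPKM + 0.1), ABCA1 in the first and LIPA in the others, both named after their values were seen. With a library left out these counts lay between 1 and 14 higher and between 0 and 5 lower. The cause of these changes was not tested.

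Replicate numbers were shared between the groups, but same-numbered libraries did not deviate together (correlations of -0.225, 0.0077 and -0.266), so the numbers were not taken as pairs. Control replicate 1 with replicate 3 of TFAM-OE gave 0.243, and control replicate 3 with replicate 1 of TFAM-OE gave 0.252. The remaining differently numbered pairs lay between -0.039 and 0.032. The source of these correlations was not tested. With the replicate block, 285 genes were called lower and 74 higher, 217 and 38 with a 2-fold change, CH25H was still called, and SREBF1 was the 1 list gene outside the 8 called higher.

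CH25H rests on 5 reads in the libraries labelled TFAM-OE.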
